A study of Mus musculus with 6 samples.

Results

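The genes described here encode the proteins of the cytosolic ribosome. They were the protein-coding rows of the gene count table whose symbol starts with Rpl or Rps followed by a digit, together with Rplp0, Rplp1, Rplp2 and Rpsa, and with the ribosomal S6 kinase genes (Rps6k) left out. The rule found 92 of the 55804 rows. Of these, 46 encode canonical proteins of the large (60S) subunit, 31 encode canonical proteins of the small (40S) subunit, and 15 are paralogues, retained copies or genes that only share the name start. The 77 canonical genes are called core genes below. All 77 had enough counts to be tested. Of the other 15, 10 were tested. Rpl10l, Rpl39l, Rpl9-ps1 and Rpl36-ps4 had 0 counts in every library, and Rpl36a-ps1 had 1 to 15 counts.

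A ribosome carries 1 copy of nearly every ribosomal protein, so the genes are usually expressed at similar, high levels and adjusted together. Most of their mRNAs begin with a terminal oligopyrimidine (TOP) tract, a run of C and U bases through which growth signals acting on mTOR control their translation. In differentiating myoblasts, ribosome production is tied to exit from the cell cycle and to the growth of the myotube. Ribosomal protein mRNAs have also given rise to many processed pseudogenes, which are near-identical copies elsewhere in the genome that can take reads from the true gene.

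The cells were C2C12, a mouse skeletal myoblast line, grown in 20% fetal bovine serum and then held for 3 days in differentiation medium with 2% horse serum. One group of 3 libraries carried a control guide RNA (Ctrl-gRNA, genotype labelled WT), and the other 3 were from a line made with a CRISPR/Cas9 guide to Prr33 (Prr33-gRNA, labelled as a knockdown). The labels name 1 guide line per group, so an effect of the guide and a difference between the lines cannot be told apart. Separate cultures are not named for the replicates, and p-values therefore measure a spread between libraries that may be technical. Total counts ran from 17006381 to 19118010 in Ctrl-gRNA and from 17412383 to 19471762 in Prr33-gRNA. Prr33 itself had 61.5, 60.05 and 54.4 CPM (counts over the library's scaled total) in Ctrl-gRNA and 43.1, 45.9 and 42.4 CPM in Prr33-gRNA, with no overlap. It fell by 0.42 on the log2 scale (SE 0.0650, edgeR adjusted p = 1.37e-06), and its Prr33-gRNA mean was 0.747 of the control mean. All 10 markers of skeletal muscle were detected, 8 of them lower and 2 higher, with a summed level of 30514 to 31081 CPM in Ctrl-gRNA and 18728 to 19515 CPM in Prr33-gRNA. Of 5 fibroblast markers Lum was at 0, and both that could be tested, Dcn and Pdgfra, were lower (summed level 20.4 to 21.8 CPM and 7.80 to 8.48 CPM). The neural markers Sox10, Rbfox3 and Snap25 were at 0. The adipocyte, endothelial, blood and epithelial lists summed to at most 1.82 CPM in any library, with Ptprc, Adipoq, Plin1 and Epcam at 0 and no marker called. Whether other cell types had a part in the results below was not tested. In total RNA from whole cultures, fewer cells of a type and less RNA per cell cannot be told apart.

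Over the 77 core genes, 36 were lower and 3 were higher in Prr33-gRNA, and 38 had no call (edgeR's quasi-likelihood test over 14651 genes, Benjamini-Hochberg adjusted p below 0.05). That is 46.8% lower and 3.90% higher, where 26.6% of all tested genes were called lower and 25.5% higher. The size of the shift was small. The median log2 fold change of the core genes was -0.14, with quartiles of -0.31 and -0.01, beside a median of -0.00 and quartiles of -0.32 and 0.24 over all tested genes. A total of 59 core genes had a fold change below 0 and 18 above it. The CPM ranges of the groups were apart for 39 core genes, with all Prr33-gRNA libraries below in 35 and above in 4. Over all tested genes the same held below in 29.3% and above in 28.6%. On simulated counts, edgeR recovered 4 of 50 genes changed by 1.1-fold, 25 of 50 changed by 1.25-fold and 45 of 50 changed by 1.5-fold. Those genes were drawn from all with a mean of at least 50 counts, whereas 66 of the 77 core genes averaged at least 1000. The simulation also changed few genes, so its rates do not give the recovery for the core genes. With library sizes left unscaled, all tested genes shifted up by 0.09, 23 members were lower and 13 higher in place of 37 and 4, and the core median was -0.055.

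**Figure D1:**
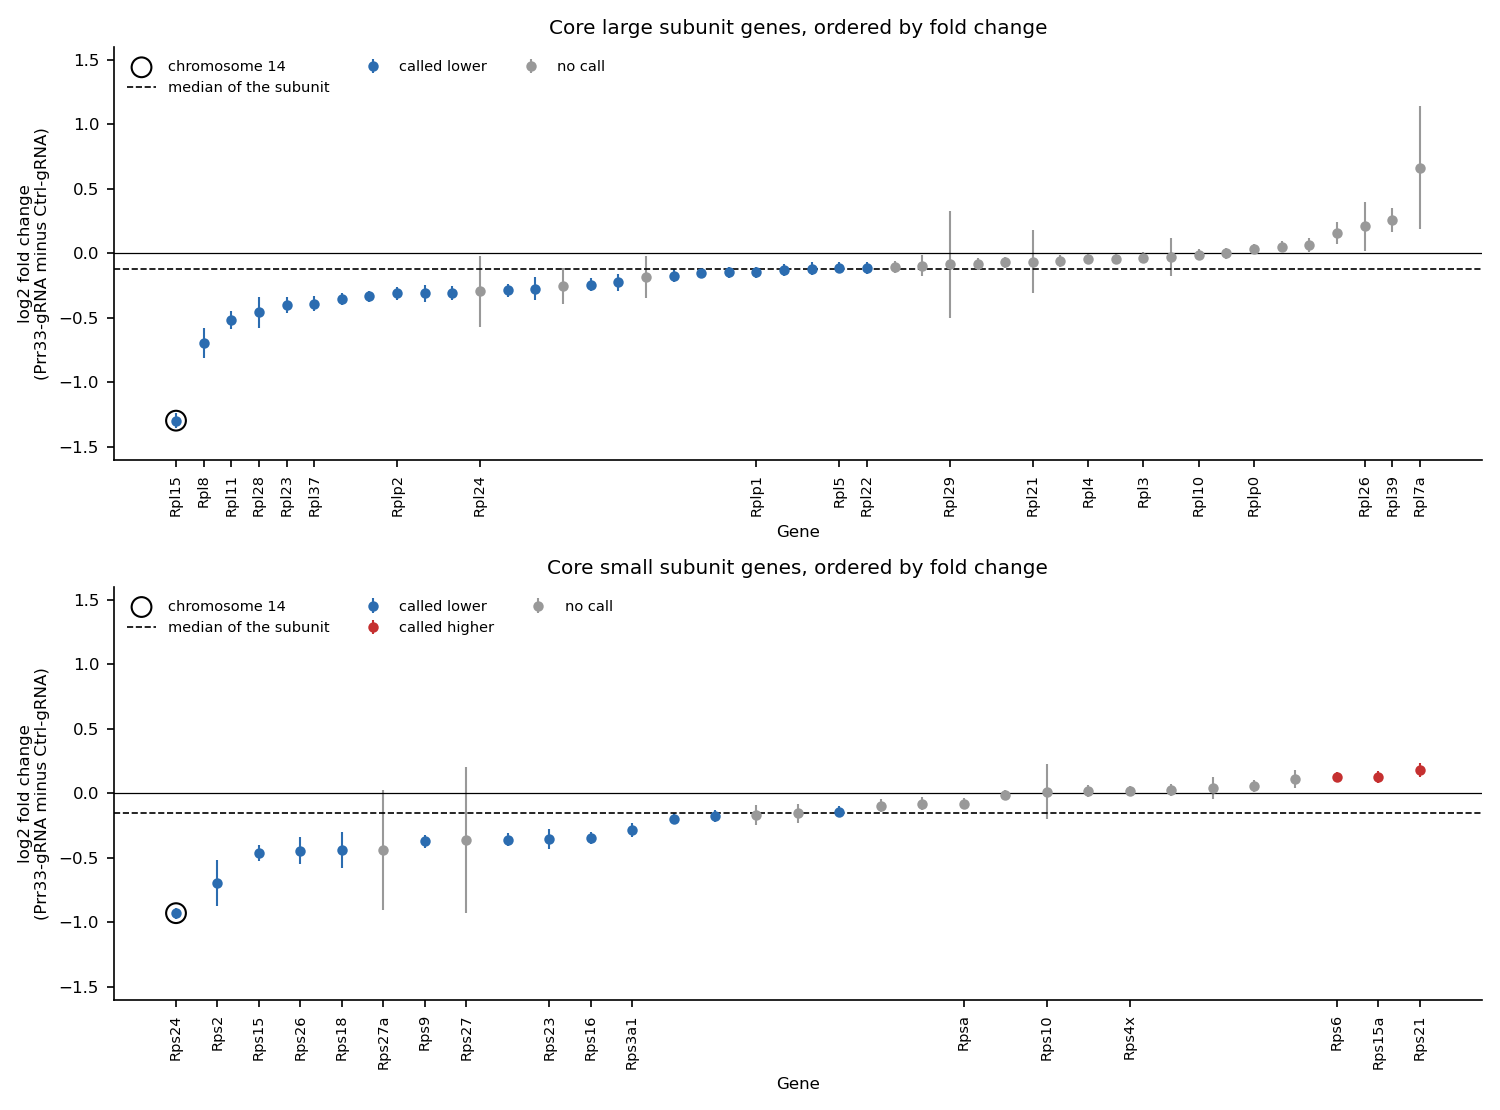
Log2 fold change (Prr33-gRNA minus Ctrl-gRNA, vertical axis) of each core gene, ordered within the large subunit (top) and small subunit (bottom). Genes with values in the text are labelled, bars are the SE from edgeR, colours give the call, circles mark chromosome 14 and the dashed lines mark the medians of -0.12 and -0.16, with Rpl15 and Rps24 lowest in their subunits.

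The subunits were alike in their middle. Of the 46 large subunit genes, 23 were lower, 0 higher and 23 without a call, with a median of -0.12. Of the 31 small subunit genes, 13 were lower, 3 higher and 15 without a call, with a median of -0.16. Counts of the small subunit summed to 60.7%, 60.2% and 62.6% of those of the large subunit in Ctrl-gRNA, and to 60.03%, 61.8% and 63.1% in the Prr33-gRNA libraries. The ranges overlapped, and the difference of 0.454 percentage points was small beside the spread (exact two-sided permutation test, p = 0.8, n = 3 per group). Differences between single genes of 1 subunit were larger than the difference between subunits.

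The deepest falls in each subunit were those of the core genes on chromosome 14, Rpl15 and Rps24. Rpl15 encodes a protein of the large subunit core, and Rps24 encodes a small subunit protein needed to process the precursor of 18S rRNA. Both are among the genes mutated in the inherited anaemia Diamond-Blackfan. Their regions of transcription start in the mouse genome (RefSeq, GRCm38.p6) are shown because these genes had the lowest fold changes of their subunits. Each run covers 50 bases before and 30 bases from the start, 5′ to 3′ on the gene's strand, with capitals marking CTTTC, a pentamer that fits the TOP tract. Rps24 has 2 annotated starts.
Rpl15, chr14:18270957-18271036, minus strand: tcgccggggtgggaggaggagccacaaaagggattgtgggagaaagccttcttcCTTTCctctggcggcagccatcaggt
Rps24, first start, chr14:24490628-24490707, plus strand: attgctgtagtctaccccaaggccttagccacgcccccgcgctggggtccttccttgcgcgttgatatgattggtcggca
Rps24, other start, chr14:24490703-24490782, plus strand: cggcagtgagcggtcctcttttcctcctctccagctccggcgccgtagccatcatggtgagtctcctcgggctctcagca

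Rpl15 (ENSMUSG00000012405, chr14:18267823-18271391, minus strand) had 246, 215 and 213 CPM in Ctrl-gRNA and 96.8, 93.2 and 84.6 CPM in Prr33-gRNA. Every Prr33-gRNA library was below every Ctrl-gRNA library. It fell by 1.30 on the log2 scale (SE 0.0578, edgeR adjusted p = 9.11e-17), and its mean of 91.5 ± 6.29 CPM (SD, n = 3) was 0.407 of the control mean. Rps24 (ENSMUSG00000025290, chr14:24487125-24496959, plus strand) had 413, 420.0 and 440.5 CPM in Ctrl-gRNA and 222, 231 and 215 CPM in Prr33-gRNA. The groups were again apart, and Rps24 fell by 0.93 (SE 0.0435, edgeR adjusted p = 4.04e-19). Both stayed lower in each of the 18 settings in which they could be tested.

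These falls were of the size seen on chromosome 14 as a whole. Of its 896 protein-coding rows 400 were tested, of which 361 (90.2%) were lower and 10 higher, and the median log2 fold change was -0.90 between quartiles of -1.15 and -0.66. Rps24 lay close to that median and Rpl15 below the lower quartile. The core genes on chromosome 14 took 0.0638%, 0.0616% and 0.0632% of all counts in Ctrl-gRNA, against 0.0327%, 0.0336% and 0.0308% in Prr33-gRNA. That ratio of means was 0.515, and the exact two-sided permutation p of 0.1 is the smallest that 3 libraries against 3 can give. With both genes set aside, the other 75 core genes still gave 34 lower and 3 higher with a median of -0.13.

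Pseudogene copies of the chromosome 14 genes on other chromosomes were also measured. Each of the 4 tested copies of Rpl15, on chromosomes 9, 12 and 15, was lower, with log2 fold changes from -1.67 to -1.26. Gm10020 on chromosome 15 went from 44.5 ± 6.93 to 14 ± 1.1 CPM (SD, n = 3), a log2 fold change of -1.67 (edgeR adjusted p = 6.53e-14). Its sequence shares 91.5% of its 25-base stretches with Rpl15. Of 4 tested copies of Rps24 outside chromosome 14, 2 were lower, 0 were higher and 2 had no call. On chromosome 14 itself 5 copies of members were tested, of which 2 were lower and 3 had no call. Both copies called lower match Rpl23a, and Rpl23a-ps3 had a log2 fold change of -0.48 (edgeR adjusted p = 1.03e-05). The most abundant of the 5, Rps3a2, a processed pseudogene of Rps3a1, had 392 ± 15.3 CPM in Ctrl-gRNA and 366 ± 15.9 CPM in Prr33-gRNA, a log2 fold change of -0.10 (edgeR adjusted p = 0.0592). The protein-coding median of the chromosome was -0.90, and the parent gene lies on chromosome 3. Whether reads at these copies came from the copies or from the parent genes was not tested.

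Outside chromosome 14, the large subunit genes with the lowest fold changes were Rpl8, Rpl11, Rpl28, Rpl23 and Rpl37. Rpl8, a protein near the peptidyl transferase centre, had 691, 614 and 545 CPM in Ctrl-gRNA and 374, 419 and 350.4 CPM in Prr33-gRNA. The groups did not overlap, and Rpl8 fell by 0.69 (SE 0.118, edgeR adjusted p = 0.00646). Only 6.30% of its 50-base stretches occur in another transcript, and its sum with pseudogene copies gave -0.70. Rpl11 forms a complex with Rpl5 and 5S rRNA that binds the p53 regulator Mdm2. It had 283, 263 and 234 CPM in Ctrl-gRNA and 185, 194 and 166 CPM in Prr33-gRNA, again with no overlap, and fell by 0.52 (SE 0.0724, edgeR adjusted p = 7.11e-05). Its partner Rpl5 fell by less, from 510 ± 8.73 to 472 ± 4.71 CPM (-0.11 on the log2 scale, edgeR adjusted p = 0.0204). Rpl28 was at 301, 268 and 245 CPM in Ctrl-gRNA and at 204, 217 and 173 CPM in Prr33-gRNA. Its groups were apart and its log2 fold change was -0.46 (edgeR adjusted p = 0.0264). Rpl23, which lies at the face that joins the small subunit, and Rpl37 fell by 0.40 and 0.39 (edgeR adjusted p = 3.14e-05 and 9.60e-07).

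Some of these genes lie among other genes that were lower. Of 55 tested protein-coding genes, members left out, that start within 1 Mb of Rpl8 on chromosome 15, 28 (50.9%) were lower and 2 higher, with a median log2 fold change of -0.25. Near Rpl28 on chromosome 7, 13 of 29 were lower and 0 higher, with a median of -0.25. The neighbours of Rpl11 on chromosome 4 were 8 lower and 7 higher of 24, with a median of 0.01. Near Rpl23 18 of 43 were lower and 10 higher, and near Rpl37 0 of 4 were lower and 1 higher. Core genes without a call could have many lower neighbours too. Near Rpl3, at a log2 fold change of -0.03, 21 of 33 were lower and 3 higher. Near Rps14, at 0.11, 12 of 21 were lower and 1 higher. Over all tested protein-coding genes 28.3% were lower and 28.8% higher. The part of the neighbourhood in the values of Rpl8 and Rpl28 was not tested.

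The acidic stalk of the large subunit, which recruits the elongation factors, changed unevenly. Rplp2 fell by 0.31 and Rplp1 by 0.15 (edgeR adjusted p = 1.74e-06 and 0.00439). Rplp0, which anchors them to the ribosome, had 1041, 993 and 1026 CPM in Ctrl-gRNA and 1022, 1082 and 1029 CPM in Prr33-gRNA. Its groups overlapped, and its log2 fold change of 0.03 had an edgeR adjusted p of 0.504. Other abundant large subunit genes also had no call. Rpl4 had 908, 911 and 914 CPM in Ctrl-gRNA and 877, 896 and 874 CPM in Prr33-gRNA. Those ranges were apart, but the change of -0.05 did not pass (edgeR adjusted p = 0.333). Rpl3, at the peptidyl transferase centre, and Rpl10, which joins the subunit late in its assembly, had log2 fold changes of -0.03 and -0.01 without a call.

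At the upper end of the large subunit, no gene had a call, and the spread within groups differed between genes. Rpl7a had the highest log2 fold change, 0.67, without a call (edgeR adjusted p = 0.320). It had 64.0, 92.0 and 47.6 CPM in Ctrl-gRNA and 168, 70.0 and 84.7 CPM in Prr33-gRNA, so that 1 library stood high and the groups overlapped. Of its 50-base stretches 81.2% occur in other transcripts, and 107 pseudogene rows match it. Rpl39 had 135, 125 and 162 CPM in Ctrl-gRNA and 169, 159 and 178 CPM in Prr33-gRNA. Its groups overlapped, and its log2 fold change of 0.26 lay just outside the threshold (edgeR adjusted p = 0.0501), with a call of higher in 9 of 19 settings. The sum with its pseudogene copies was among those settings (0.23, edgeR adjusted p = 0.0430). Rpl26 had a log2 fold change of 0.21 at 5.33 ± 0.707 and 6.14 ± 1.83 CPM (edgeR adjusted p = 0.376).

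**Figure D2:**
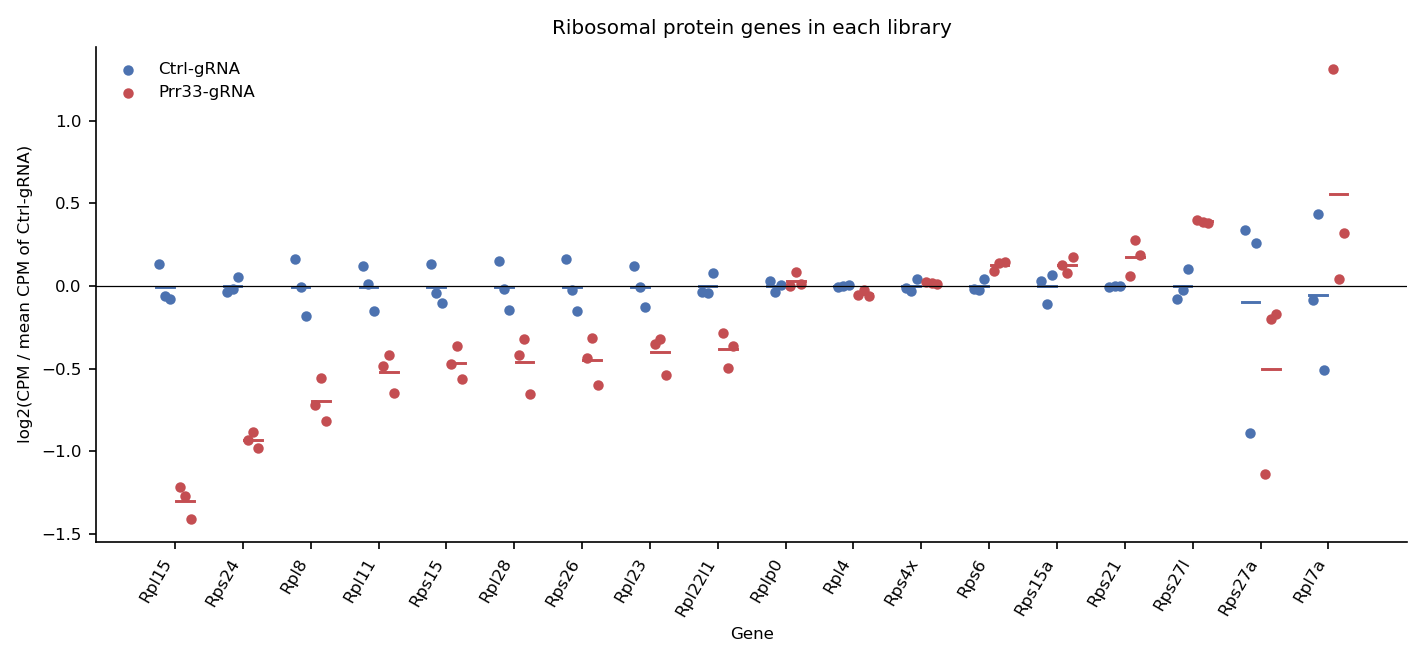
CPM of selected genes in each library, as log2 of the ratio to the Ctrl-gRNA mean (vertical axis), with 1 point per library and a bar at each group's mean. Rpl15 and Rps24 show groups far apart, Rplp0 and Rps4x show groups that overlap, and Rps27a and Rpl7a show libraries of 1 group that differ by 1.93-fold to 2.40-fold.

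In the small subunit, Rps2, Rps15, Rps26 and Rps18 followed Rps24 among the genes called lower. Rps15, whose tail reaches the decoding site, had 339.7, 302 and 289 CPM in Ctrl-gRNA and 223, 242 and 210.1 CPM in Prr33-gRNA. The groups were apart, and Rps15 fell by 0.46 (SE 0.0583, edgeR adjusted p = 1.54e-06). Rps26, which lines the mRNA exit channel, had 225, 198 and 181 CPM in Ctrl-gRNA and 149, 162 and 133 CPM in Prr33-gRNA. It fell by 0.45 with no overlap (SE 0.103, edgeR adjusted p = 0.0104), but Rps26-ps1, a transcribed copy, rose from 103 ± 12.1 to 123 ± 11.9 CPM (0.27, edgeR adjusted p = 0.0462). Summed with its copies, Rps26 fell by 0.17 (edgeR adjusted p = 0.00338). Rps9, Rps23 and Rps16 fell by 0.38, 0.36 and 0.35, each with no overlap between groups. Of 82 tested protein-coding genes, members left out, that start within 1 Mb of Rps15, 41 (50%) were lower and 8 higher. Their median log2 fold change was -0.19. Near Rps26 15 of 43 were lower and 8 higher, and near Rps2 7 of 51 were lower and 12 higher. The part of the neighbourhood in these values was not tested.

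Rps2 and Rps18 were called lower at low counts. Rps2, at the mRNA entry channel, had 27.8, 25.5 and 16.3 CPM in Ctrl-gRNA and 14.5, 14.9 and 13.7 CPM in Prr33-gRNA. The third Ctrl-gRNA library lay close to the Prr33-gRNA libraries, and Rps2 fell by 0.70 (SE 0.181, edgeR adjusted p = 0.0104). Rps18 had 24.7, 22.9 and 16.6 CPM in Ctrl-gRNA and 13.5, 18.5 and 15.4 CPM in Prr33-gRNA. Its groups overlapped at a log2 fold change of -0.44 (edgeR adjusted p = 0.0170). Rps27a, which is made as a fusion with ubiquitin, had a similar log2 fold change of -0.44 and no call (edgeR adjusted p = 0.5). Its values were 255, 109 and 242 CPM in Ctrl-gRNA and 92.0, 176 and 180.0 CPM in Prr33-gRNA, with 1 low library in each group.

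Only Rps6, Rps15a and Rps21 were higher among the core genes. Rps6, the substrate of the S6 kinases downstream of mTOR, had 381, 379 and 397 CPM in Ctrl-gRNA and 411, 424 and 427 CPM in Prr33-gRNA. The groups were apart by a small gap, and the rise was 0.13 (SE 0.0412, edgeR adjusted p = 0.0103). Rps15a rose by the same 0.13, from 271, 246 and 278 CPM to 290.0, 281 and 299 CPM (edgeR adjusted p = 0.0196). Rps21 had 79.1, 79.4 and 79.4 CPM in Ctrl-gRNA and 82.7, 96.2 and 90.4 CPM in Prr33-gRNA. It rose by 0.18 with no overlap (SE 0.0563, edgeR adjusted p = 0.00821). Each of the 3 lost its call in 3 or 4 of 19 settings, and both fits on FPKM were among those for all 3. Of all members, 21 of the 37 called lower and 1 of the 4 called higher were called in every setting in which they were tested. Some lower calls were kept less often than those of Rps6, Rps15a and Rps21. Rpl22 and Rpl23a were each called lower in 10 of 19 settings.

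The genes called lower often had the same highest and lowest library within a group. Of the 36, 31 had their highest Ctrl-gRNA value in library 1 and 23 had their lowest in library 3. In Prr33-gRNA, 28 of the 36 were highest in library 2 and 23 were lowest in library 3. Among the 38 core genes without a call, by comparison, 8 were highest in Ctrl-gRNA library 1 and 25 in Ctrl-gRNA library 3. In Prr33-gRNA, library 2 was again most often the highest, in 18 of these 38, and library 3 was lowest in 10. The core genes were sorted by a call that used the same libraries, so the counts are a description. The order over all tested genes was not counted. Without Ctrl-gRNA library 1, 31 members were lower and 4 higher. Without Ctrl-gRNA library 3, 41 were lower and 7 higher.

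As a share of all counts, the 92 members took 2.23%, 2.11% and 2.19% in Ctrl-gRNA, against 2.05%, 2.17% and 2.06% in the Prr33-gRNA libraries. The second Prr33-gRNA library lay within the Ctrl-gRNA range. The means of 2.18% ± 0.0643 and 2.09% ± 0.0671 (SD, n = 3) differed by about the spread between libraries (exact two-sided permutation test, p = 0.2). The large subunit took 1.32% ± 0.0382 and 1.26% ± 0.0404 (exact permutation p = 0.2), and the small subunit 0.807% ± 0.0299 and 0.777% ± 0.0288 (exact permutation p = 0.3). The summed share of the other members was 0.0488% ± 0.00110 and 0.0569% ± 0.00246, with no overlap (exact permutation p = 0.1). Within this sum, Rps27rt went from 78.1 ± 19.4 to 109 ± 11.2 CPM without a call, and Rps27l from 75.8 ± 4.92 to 99.4 ± 0.497 CPM. The coding sequence of Rps27rt is identical to that of Rps27, so the split of reads between them is uncertain. As single genes, 1 of the 10 tested was higher, 1 lower and 8 had no call, with a median log2 fold change of -0.01. On the per-length FPKM scale the members took 4.36% ± 0.116 and 4.34% ± 0.154 of the summed signal (exact permutation p = 1).

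Levels between genes can be compared only per length. The FPKM of core genes ran from 0.789 to 1047 in Ctrl-gRNA, with a median of 126, and from 0.758 to 950.0 in Prr33-gRNA, with a median of 107. Only 39 of the 77 lay within 2-fold of the median. The highest levels in the large subunit were those of Rplp1, at 1047 ± 33.9 and 950.0 ± 46.5 FPKM, Rplp0, at 610.2 ± 14.7 and 628 ± 20.5 FPKM, and Rpl4, at 450.3 ± 2.90 and 438 ± 6.79 FPKM. The small subunit was led by Rps15, at 489 ± 40.0 and 356 ± 25.9 FPKM, Rps4x, at 339.6 ± 9.59 and 346 ± 2.28 FPKM, and Rpsa, at 290.1 ± 10.3 and 275 ± 15.5 FPKM. At the other end, Rpl21, Rpl29 and Rpl24 had 0.789, 0.955 and 2.33 FPKM in Ctrl-gRNA, and Rps10, Rps18 and Rps2 had 1.72, 8.67 and 12.6 FPKM. FPKM divides by the gene length in the table, which is 6256 bases for Rps24 and 630 bases for Rps15, and a level per length therefore depends on which exons were counted as the gene.

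Most of these low genes had more reads at pseudogene copies than on their own row. By shared sequence, 1168 pseudogene rows matched a member, of which 583 had counts, and 75 of the 77 core genes had at least 1 such row. A core gene shared a median of 35.8% of its 50-base stretches with other transcripts, with a range from 0 to 85.5%. In 8 core families the named gene held under 50% of the summed counts. Rpl21 held 8.09% of its family's counts, Rpl24 held 14.3%, Rps10 held 2.84% and Rpl29 held 1.3%. Rps2 held 3.43%, and Rps2-ps10 alone had 363 ± 11.8 CPM in Ctrl-gRNA and 361 ± 20.6 CPM in Prr33-gRNA. Rpl26 held 1.47%. The setting for reads that map to several places was not given in the sources used here. The split of reads between a gene and its copies is uncertain for these genes.

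**Figure D3:**
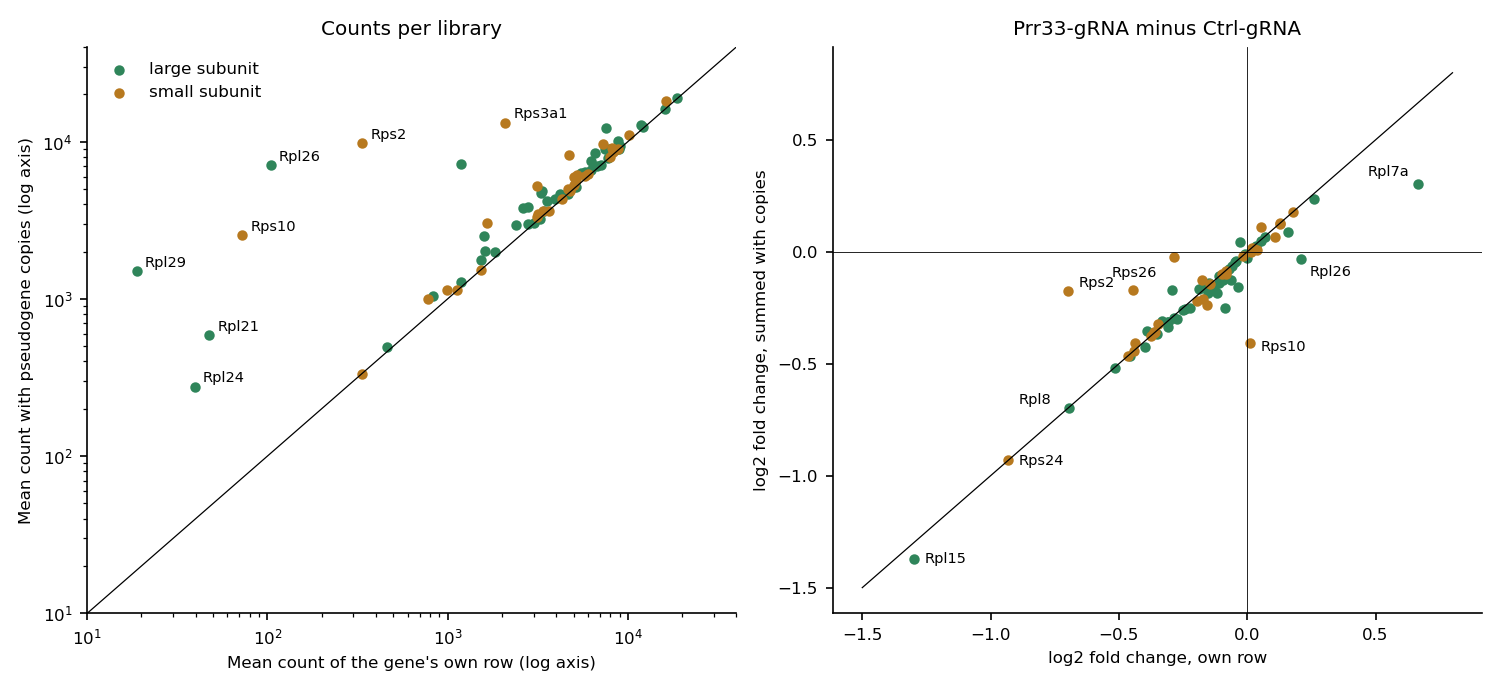
Left, mean count per library of each core gene's own row (horizontal, log axis) and of the row summed with its pseudogene copies (vertical, log axis). Right, the log2 fold change (Prr33-gRNA minus Ctrl-gRNA) of the row alone against that of the sum, where Rps10 moves from 0.01 to -0.41 and Rps2 from -0.70 to -0.17.

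Summing each gene with its copies changed the picture for named genes more than for the whole. Of the 77 families, 41 were lower and 5 higher, with a median of -0.16. Over all rows so treated, 26.8% were lower and 25.8% higher. Rps10 had 67, 85 and 54 counts in the Ctrl-gRNA libraries on its own row, and 62, 82 and 83 counts in Prr33-gRNA, with a log2 fold change of 0.01. Its family had 3110, 2766 and 2514 counts against 2249, 2385 and 2249. The family counts did not overlap, and the sum fell by 0.41 (SE 0.0557, edgeR adjusted p = 2.90e-07). For Rps3a1 the opposite held. Its own row fell by 0.29, from 127 ± 7.0 to 104 ± 3.96 CPM (edgeR adjusted p = 2.01e-05), but its family, with counts of 13314, 12005 and 12933 against 13110, 13388 and 14685, had a log2 fold change of -0.02 and no call (edgeR adjusted p = 0.692). Rpl29, at 19, 17 and 20 counts against 25, 26 and 6, had no call alone, and its family fell by 0.25 (edgeR adjusted p = 0.00201). In all, 38 core genes called on their own row kept the same call in the sum, 1 lost it and 8 gained one. Among the 22 core genes with at most 25% of shared 50-base stretches, 10 were lower and 1 higher, with a median of -0.13.

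Rps27 and its retained copy Rps27rt share an identical coding sequence. The coding sequences of Rps27 on chromosome 3 and Rps27rt on chromosome 9 have 255 bases each and differ at 0 of them. The paralogue Rps27l, also on chromosome 9, encodes a similar zinc-binding protein and is a p53 target. The first 120 coding bases of each, with capitals marking the 28 bases of Rps27l that differ from Rps27, are shown because the reads of Rps27 and Rps27rt cannot be told apart by this sequence.
Rps27: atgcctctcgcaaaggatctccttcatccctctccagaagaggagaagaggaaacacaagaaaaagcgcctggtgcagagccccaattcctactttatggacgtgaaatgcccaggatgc
Rps27rt: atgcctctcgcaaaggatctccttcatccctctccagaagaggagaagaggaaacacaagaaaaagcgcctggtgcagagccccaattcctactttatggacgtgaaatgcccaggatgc
Rps27l: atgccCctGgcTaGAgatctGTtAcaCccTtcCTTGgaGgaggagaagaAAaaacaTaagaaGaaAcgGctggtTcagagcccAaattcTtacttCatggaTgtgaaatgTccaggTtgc

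Rps27 had 59.3, 37.1 and 116 CPM in Ctrl-gRNA and 35.5, 50.6 and 78.4 CPM in Prr33-gRNA. Its Ctrl-gRNA libraries differed by 3.13-fold, the widest spread within a group among members with a mean of at least 100 counts, and the log2 fold change of -0.36 had no call (edgeR adjusted p = 0.648). Rps27rt had 74.7, 99.0 and 60.7 CPM in Ctrl-gRNA and 117, 113 and 96.2 CPM in Prr33-gRNA. It was lowest in each group in the library where Rps27 was highest. Its groups overlapped, and its log2 fold change of 0.48 had no call (edgeR adjusted p = 0.140). The 2 rows together had 134, 136 and 177 CPM in Ctrl-gRNA and 153, 164 and 175 CPM in Prr33-gRNA. The sum varied by 1.32-fold within Ctrl-gRNA, less than either row, and the groups overlapped (exact two-sided permutation test, p = 0.4, n = 3 per group).

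**Figure D4:**
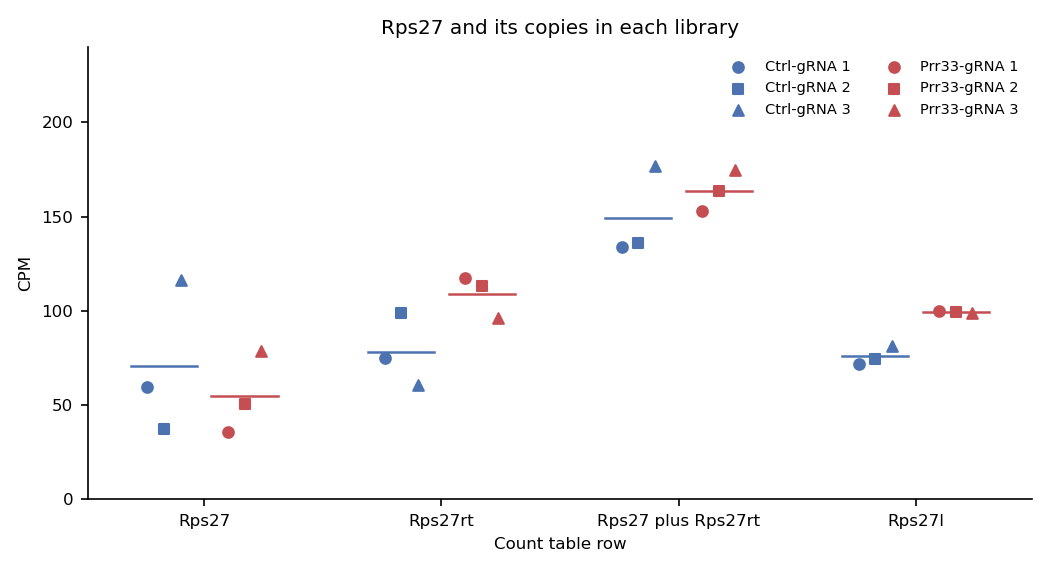
CPM (vertical axis) of Rps27, Rps27rt, their sum and Rps27l in each library, with marker shapes for the library number and bars for the group means. Rps27 spans 37.1 to 116 CPM within Ctrl-gRNA, while Rps27l keeps to 71.7 to 81.3 CPM there and to 99.0 to 100.0 CPM in Prr33-gRNA.

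Rps27l was the one member outside the core that rose. It had 71.7, 74.5 and 81.3 CPM in Ctrl-gRNA and 100.0, 99.4 and 99.0 CPM in Prr33-gRNA. The groups were apart, and the rise was 0.39 (SE 0.0546, edgeR adjusted p = 2.32e-07), a call kept in all 19 settings. Rpl22l1, the paralogue of Rpl22, was the one that fell. It had 42.1, 42.0 and 45.6 CPM in Ctrl-gRNA and 35.6, 30.7 and 33.7 CPM in Prr33-gRNA, with no overlap and a log2 fold change of -0.38 (SE 0.0723, edgeR adjusted p = 4.42e-05). Rpl22 fell by 0.11, from 187 ± 4.67 to 173 ± 5.54 CPM (edgeR adjusted p = 0.0426). The other 8 tested members had no call. Rps18-ps5 is annotated as protein-coding and differs from Rps18 at 3 of 459 coding bases. It had 97.4 ± 8.84 CPM in Ctrl-gRNA and 101 ± 10.7 CPM in Prr33-gRNA. Summed, the rows Rps18 and Rps18-ps5 had 118, 114 and 124 CPM in Ctrl-gRNA and 104, 130.4 and 117 CPM in Prr33-gRNA, which overlapped (exact permutation p = 0.9), in place of the call for Rps18 alone. Rpl9-ps6 differs from Rpl9 at 1 of 579 coding bases and had 34.7 ± 3.35 and 36.3 ± 2.17 CPM. Its sum with Rpl9 had 369, 374 and 383 CPM in Ctrl-gRNA and 343, 348 and 336 CPM in Prr33-gRNA, with no overlap (exact permutation p = 0.1). Rps19bp1, whose product binds Rps19 and is no ribosomal protein, had 18.7 ± 1.19 and 16.9 ± 1.48 CPM. Rpl7l1, a relative of Rpl7, had 152 ± 2.09 and 154 ± 8.14 CPM. Rpl10-ps3 and Rpl36al had at most 38 and 14 counts in a library.

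Ratios of a paralogue to its parent compare the pair within each library. Of 10 listed pairs, 6 had a mean of at least 10 counts in each group for both genes. The log2 ratio of Rpl22l1 to Rpl22 in FPKM was -1.63, -1.61 and -1.44 in Ctrl-gRNA, against -1.76, -1.98 and -1.76 in the Prr33-gRNA libraries. The groups were apart by 0.27, at the smallest p that this design allows (exact two-sided permutation test, p = 0.1, adjusted p = 0.6 over 6 pairs). Rpl3l, a paralogue of Rpl3 found in heart and skeletal muscle, had 19, 16 and 4 counts in the Ctrl-gRNA group, and 12, 21 and 8 counts in Prr33-gRNA. It stood at a log2 ratio to Rpl3 of -8.48 ± 1.25 and -8.33 ± 0.782 (SD, n = 3; exact permutation p = 0.8). The differences in log2 ratio were 0.68 for Rps27l to Rps27, 0.79 for Rps27rt to Rps27, 0.21 for Rpl37rt to Rpl37 and 0.05 for Rpl7l1 to Rpl7, with adjusted exact permutation p of 0.6 each. Rpl37rt, annotated as a transcribed pseudogene and so no member, had counts of 486, 463 and 317 in the Ctrl-gRNA libraries, against 378, 446 and 375 in Prr33-gRNA.

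The start regions of the core genes shared sequence features that the choice of genes did not use. RefSeq windows of 250 bases before to 50 bases after the start were matched for 57 of the 77 core genes, giving 67 windows. The pentamer CTTTC on the gene's strand, searched within the last 100 bases of each window, was in 52.2% of them and in 12.8% of all 32851 windows of 27025 genes. CCGGAAG on either strand, a match to the core sequence of GABP and other ETS factors, was in 37.3% against 8.86%. TATAAA, the TATA box core, searched in the 50 bases before the start on the gene's strand, was in 0% against 2.63%. CTTTC was in 51.4% of the 35 windows of genes called lower, in 50% of the 28 of those without a call and in 3 of the 4 of those called higher. CCGGAAG was in 40.0%, 28.6% and again 3 of 4. The start regions of genes from both ends of the fold changes are shown, with capitals marking CTTTC and CCGGAAG.
Rpl11, log2 fold change -0.52, chr4:136053364-136053443, minus strand: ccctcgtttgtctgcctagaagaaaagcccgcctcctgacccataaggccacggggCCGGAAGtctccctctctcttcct
Rpl28, log2 fold change -0.46, chr7:4792915-4792994, plus strand: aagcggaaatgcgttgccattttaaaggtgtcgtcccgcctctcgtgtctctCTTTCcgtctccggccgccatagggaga
Rps15, log2 fold change -0.46, chr10:80292381-80292460, plus strand: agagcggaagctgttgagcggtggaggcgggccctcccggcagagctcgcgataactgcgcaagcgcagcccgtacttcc
Rps6, log2 fold change 0.13, chr4:86857338-86857417, minus strand: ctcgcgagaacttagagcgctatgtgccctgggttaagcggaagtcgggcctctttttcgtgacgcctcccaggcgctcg
Rps15a, log2 fold change 0.13, chr7:118116118-118116197, minus strand: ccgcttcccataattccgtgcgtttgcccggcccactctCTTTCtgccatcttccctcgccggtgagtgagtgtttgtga
Rps21, log2 fold change 0.18, chr2:180257399-180257478, plus strand: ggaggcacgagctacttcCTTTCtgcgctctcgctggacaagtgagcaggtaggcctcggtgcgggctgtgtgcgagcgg
In these stretches Rpl28, Rps15a and Rps21 hold CTTTC, Rpl11 holds CCGGAAG, and Rps15 and Rps6 hold neither. A further annotated start of Rps21, not shown, holds CCGGAAG and no CTTTC.

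Transcript composition separated the core genes little. The median GC content was 52.4% in core genes called lower, 51.5% in those without a call and 50% in those called higher. Across the 77 core genes, the Spearman correlation of the log2 fold change with GC content was -0.10, with gene length 0.11 and with mean count 0.12. Across 12031 tested protein-coding genes the correlation with GC content was -0.38. Genes share libraries and depth and are not independent replicates, so these values are descriptions. Within the large subunit alone the GC correlation was -0.26 over 46 genes. Its lower genes had a median GC of 54.5% against 51.4% for those without a call. The small subunit had a correlation of 0.005 over 31 genes. There the lower genes had a median GC of 50.2% against 52.2% for those without a call. The part of GC content in the fold changes was not tested.

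Genes for ribosomal proteins that carry other names were also measured. Fau, a ubiquitin-like fusion with the small subunit protein S30, fell from 244 ± 14.7 to 186 ± 8.74 CPM (-0.39, edgeR adjusted p = 2.49e-08). Rack1, the scaffold on the head of the small subunit, fell from 944 ± 16.6 to 860 ± 30.8 CPM (-0.13, edgeR adjusted p = 0.00553).

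For the lists that follow, the shares over all tested genes were 25.5% higher and 26.6% lower. Other genes whose mRNAs carry a TOP tract did not share the lower median. Of 14 such protein-coding genes, 7 rose, 3 fell and 4 had no call, with a median of 0.12. Nap1l1, a histone chaperone also listed as a ribosomal protein chaperone, rose from 254 ± 17.9 to 389 ± 8.05 CPM (0.61, edgeR adjusted p = 3.19e-13). The initiation factor genes Eif3f and Eif3h fell by 0.23 and 0.19. Of 6 tested noncoding TOP hosts of small nucleolar RNAs, 2 rose, 0 fell and 4 had no call, with a median of 0.18. Snhg5 rose by 0.45 and Gas5 by 0.39 (edgeR adjusted p = 2.42e-04 and 0.0185). Of 8 elongation factor genes, 3 rose, 4 fell and 1 had no call. Eef1a1, which brings aminoacyl-tRNA to the ribosome and is a TOP gene too, rose from 6502 ± 224 to 7360 ± 27.4 CPM (0.18, edgeR adjusted p = 1.72e-04), whereas Eef2, the translocation factor, fell by 0.20. Eef1a2, the muscle form of Eef1a1, fell by 3.40 at a low level, from 0.999 ± 0.299 to 0.0866 ± 0.0550 CPM. Eef1akmt1, which encodes a methyltransferase of Eef1a and lies on chromosome 14, fell by 0.59.

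**Figure D5:**
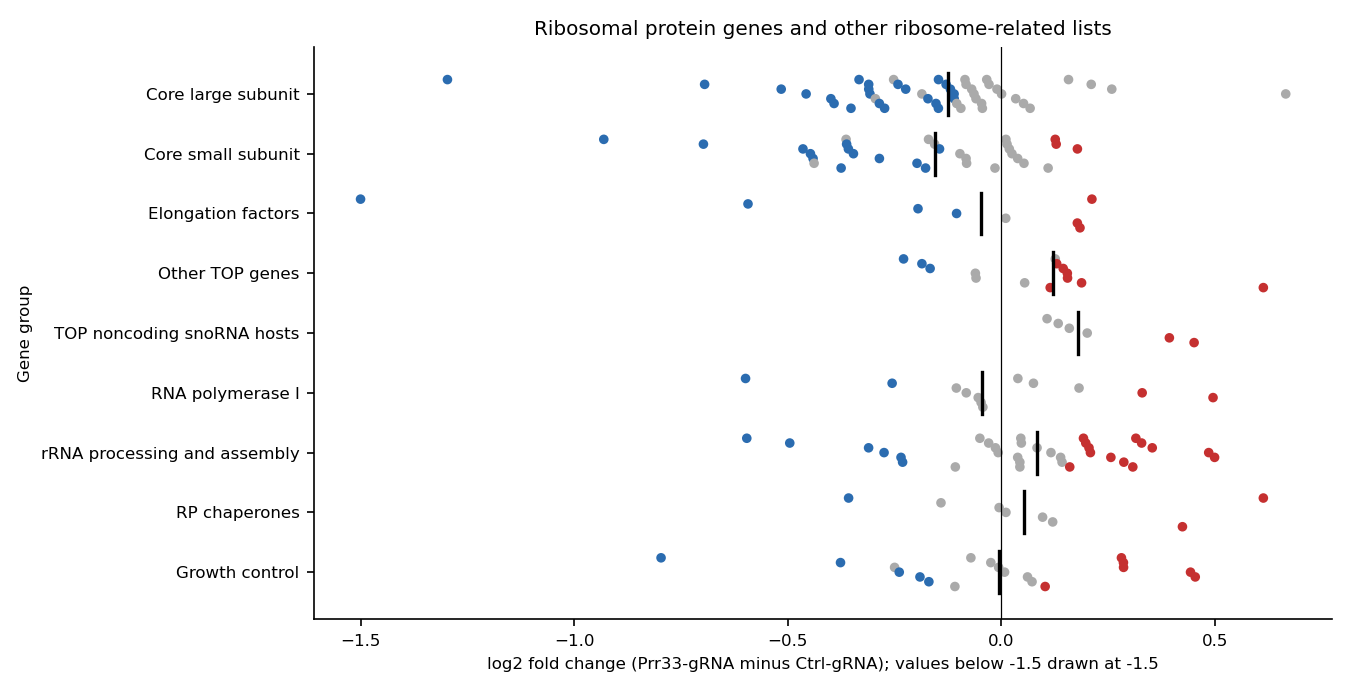
Log2 fold change (Prr33-gRNA minus Ctrl-gRNA, horizontal axis) of the tested genes in 9 groups (vertical axis), with blue for lower, red for higher, grey for no call and a black bar for the median. The core subunits lie at medians of -0.12 and -0.16, the other TOP genes at 0.12 and the rRNA processing genes at 0.08.

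Of 33 genes for rRNA processing and subunit assembly, 13 (39.4%) rose, 6 (18.2%) fell and 14 had no call, with a median of 0.08. Nop58, of the box C/D particles that methylate rRNA, rose by 0.49 (edgeR adjusted p = 6.35e-10). Gnl3, which encodes nucleostemin and lies on chromosome 14, fell by 0.60 (edgeR adjusted p = 1.35e-10), and Eif6, which keeps new large subunits from joining, fell by 0.50 (edgeR adjusted p = 7.09e-10). Of 12 genes for RNA polymerase I and its factors, 2 (16.7%) rose, 2 fell and 8 had no call, with Taf1d up by 0.50, Rrn3 up by 0.33 and Taf1a down at -0.60. Of 8 genes listed as ribosomal protein chaperones, 2 (25%) rose, 1 (12.5%) fell and 5 had no call. Heatr3, which brings Rpl5 to the nucleus, rose by 0.42, and Aamp fell by 0.36.

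Of 19 tested genes of growth control, 6 (31.6%) rose, 5 (26.3%) fell and 8 had no call, shares near those over all tested genes. Eif4ebp2, a repressor of cap-dependent initiation, rose by 0.45 and Gabpa, the DNA-binding subunit of GABP, rose by 0.44. Yy1, a factor for several ribosomal protein promoters, rose by 0.29. Myc, which drives ribosome production, fell from 39.6 ± 2.16 to 30.6 ± 2.54 CPM (-0.38, edgeR adjusted p = 8.51e-05). The genes of the mTOR complex 1 kinase and its partner, Mtor and Rptor, fell by 0.17 and 0.24 (edgeR adjusted p = 0.00229 and 4.20e-05). Myc, Mtor and Rptor, like Eef1a1 above, were named after their values were seen.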

How the data were processed

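Total RNA from 6 C2C12 samples was sequenced in 2 groups of 3. The authors deposited whole-read gene counts, not normalized, and a table of FPKM values. The submitters' processing notes name the build mm10 and, as tools, CASAVA, HISAT2 2.0.5 and featureCounts 1.5.0-p3. Strand and multi-mapping settings are not given in the sources used here. Reads of copies and of overlapping antisense genes may be mixed.

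Counts were tested with edgeR 4.0.16 (filterByExpr, TMM scaling, robust quasi-likelihood fit, group only) in R 4.3.3, with Benjamini-Hochberg adjustment over all 14651 tested genes and a threshold of 0.05. The SE is the absolute log2 fold change over the square root of F. CPM uses TMM-scaled library sizes. Intervals and SDs over 3 libraries are wide, and on simulated counts with 14410 genes 16 false calls were made. Replicate libraries differed beyond sampling noise (2.89 to 5.68 chi-square units per gene), and none was treated as a duplicate. Ratios and shares were compared by exact permutation over the 6 libraries.

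Shared sequence was computed from GENCODE M21 transcripts (GRCm38), as the percentage of a gene's 50-base stretches found in another gene. A pseudogene row joined a member's family where at least 10% of its 25-base stretches occur in that member. Promoter windows are RefSeq's (GRCm38.p6).

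The members and gene lists were chosen with earlier results of these data known. Named were Prr33, members on chromosome 14, members outside the core with at least 10 counts in a library, the 6 lowest and 3 highest fold changes per subunit, core genes called higher, the 3 most and 3 least abundant genes per subunit, and up to 3 genes of lowest adjusted p per list. Other genes were named for their role or after their values were seen, and some results for single genes are not reported here. The list symbols Polr1f, Polr1g, Polr1h and Bxdc2 matched no row, and the listed paralogue Rps4l had 0 counts in every library. Counts of neighbours within 1 Mb were added after seeing the data. Alternatives were RLE or no scaling factors, DESeq2 1.42.0, limma-voom (limma 3.58.1), other filters, protein-coding genes only, chromosome 14 left out, TMM factors without the members, limma on log2(FPKM + 1) or log2(FPKM + 0.1), a replicate block, an adjusted p below 0.01, and leaving out each library. Sums with pseudogene copies and the limit of 25% shared stretches were chosen after seeing the data. Matplotlib 3.10.9 drew the figures.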

Additional observations from a re-analysis of the deposited data

How the results depend on the processing

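The fit described in the report gave 37 members lower, 4 higher and a core median of -0.14. Without scaling factors there were 23 lower, 13 higher and a median of -0.055, and among all genes 4999 were higher and 3103 lower in place of 3740 and 3899. The core median minus the all-gene median was -0.14 in both. Limma on log2(FPKM + 0.1) gave 24 lower and 1 higher, and limma on log2(FPKM + 1) gave 25 lower and 2 higher. An adjusted p below 0.01 gave 28 lower and 2 higher. The 22 core genes with at most 25% shared stretches gave 10 lower and 1 higher, out of fewer genes tested. Leaving out 1 library gave 29 to 41 lower, 3 to 7 higher, a median of -0.16 to -0.11 and a change in the share of counts taken by members of -0.121 to -0.0535 percentage points, and 7 higher came without Ctrl-gRNA replicate 3. The replicate block gave 41 lower and 7 higher, with all 37 and 4 of the unblocked fit among them. Replicate numbers did not pair the samples (correlations of deviations -0.0122, -0.0106 and 0.0231). The other fits kept the counts within 1.5 times. Of 1149 values for 61 named genes over these settings, 1096 kept direction and call, 35 lost the call, 17 gained one and 1 reversed, Rps10 in the sum with copies (-0.41). The difference between groups (Prr33-gRNA minus Ctrl-gRNA) in the log2 ratio of Rpl3l to Rpl3 was 0.15 with all libraries. This difference ran from -0.57 without Ctrl-gRNA replicate 3 to 0.53 without Prr33-gRNA replicate 3, and was -0.25 without Prr33-gRNA replicate 2. Apart from the sum with copies and the sets with fewer genes or samples, the cause was not tested. Rpl21, Rpl24, Rpl29 and Rps10 average under 100 counts, which limits what their own rows can show.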
